A study of Mus musculus with 3 samples.

Results

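Type I interferon response genes are genes that cells switch on when type I interferon binds its receptor, and 48 of them were followed here through the cell classes of the mouse brain after a transient ischemic attack (TIA). The members were chosen by name from a list of interferon-induced genes and were matched to the count tables by symbol. Of the 48, 46 had values, 0.142% of the genes in the tables; Mx1 and Mx2 were not analysed here.

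The mice were WT animals of strain C57BL6/J, male according to a figure legend of the study. One group was naive, and the others were examined 24 h and 3 d after TIA. TIA was made by closing the middle cerebral artery with a filament for 5 min and then withdrawing it. No library was labelled sham, so the occlusion cannot be told apart from its surgery and anesthesia, or from the library. Each group was 1 library made from the pooled cells of 3 mice, taken from the ipsilateral hemisphere after TIA, with white matter and meninges removed. The tissue was dissociated with papain, depleted of dead cells, sorted for cells that exclude propidium iodide, and captured with 10x Genomics 3′ chemistry.

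Type I interferons bind a receptor made of Ifnar1 and Ifnar2, which acts through the kinases Jak1 and Tyk2 to assemble a transcription factor that contains Stat2 and Irf9. That factor binds interferon-stimulated response elements beside the genes described here, whose products sense foreign nucleic acids, block translation, degrade RNA, stop virus entry and exit, and damp the signal itself. In the brain, cells of the vessel wall and microglia are known to keep a low level of this programme without infection.

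The data were counts of unique molecular identifiers (UMIs), which stand for captured RNA molecules. Before filtering, 37987228 UMIs came from 4804 cells of the naive library, 12919691 from 1619 cells at 24 h and 48636436 from 5505 cells at 3 d. A cell was kept if it had at least 500 genes and no more than 7% of its UMIs from mitochondria, which held for 4018, 1225 and 4781 cells, with median depths of 7750, 8123 and 7868 UMIs. Among the kept cells the naive and 24 h libraries shared 2 cell barcodes, the naive and 3 d libraries 7, and the 24 h and 3 d libraries 2. Clustering gave 7 classes with at least 50 cells in each library, named from marker genes. Microglia numbered 1025 cells in the naive library, 283 at 24 h and 1275 at 3 d, and endothelial cells numbered 287, 229 and 591.

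UMIs were summed over the cells of a class in a library and scaled to a total of 1000000 (CPM). A 3′ UMI count is 1 per molecule whatever the length of the transcript, so CPM is a share of molecules and was not divided by length. Changes are log2 ratios of CPM to the naive library, and a member was counted as higher or lower when it differed at least 1.5-fold and held at least 30 UMIs in the 2 sums together. Intervals are exact 95% intervals from the counts (Poisson for a level, conditional binomial for a ratio, Clopper-Pearson for a share of cells) and cover counting error only. There were no replicates, so no difference was tested against the spread between mice, and 1 naive library served as the reference for both times. Where a sum held 0 UMIs, a ratio is a bound computed with 3 UMIs in its place.

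The brain without TIA already separated the classes. Endothelial cells of the naive library held the members together at 4425 CPM (95% interval 4315 to 4537), pericytes at 1104 CPM, microglia at 1050 CPM (1029 to 1072), astrocytes at 256 CPM, neural progenitors at 192 CPM, oligodendrocytes at 138 CPM, and neurons and neuroblasts at 114 CPM. Of the 43 members with at least 30 UMIs over the 7 classes, 37 had their highest level in endothelial cells. No count over all genes was set beside this one, so it describes the members only. Microglia held the highest level of 5 members, which were chosen after their values were seen: Ifi207, Herc6, Lgals3bp, Parp9 and Trim30a. Ifi204 was highest in pericytes, at 17.96 CPM from 13 UMIs against 8.76 CPM in microglia.

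Set directly against microglia of the naive library, endothelial cells had 30 of 43 members at least 2-fold higher, beside 18.6% of all 11975 genes with that minimum. The 2 members at least 2-fold lower stood beside 24.8% of all genes. The median log2 ratio of endothelial cells to microglia was 1.65 over the members and -0.07 over all genes. Since classes are defined by the genes of the same cells, this is a description. Marker genes bear on it: the 10 microglial markers, all detected, summed to 996 CPM in naive endothelial cells and 28390 CPM in microglia. The 10 endothelial markers, all detected, summed to 77.8 CPM in microglia and 23930 CPM in endothelial cells, with Slc2a1 the most abundant in microglia at 39.2 CPM. In the 50% of cells with the smallest share of other classes' markers, chosen after the data were seen, 28 members were at least 2-fold higher. In the 5 naive endothelial cells and 54 naive microglia with at most 1 UMI of such markers, 1 member was. No share of all genes was set beside these 2 counts. The part of RNA from the other class in these levels was not tested.

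The 5 widest gaps lay in members of several roles. Samd9l, an antiviral gene that also restrains cell growth, stood at 133 CPM (185 UMIs) in naive endothelial cells and 2.53 CPM (22 UMIs) in microglia, a 52.4-fold difference (log2 5.71, 5.07 to 6.42). Ifitm3, a membrane protein that stops viruses from fusing with the cell, stood at 935 CPM (1303 UMIs) and 22.9 CPM (199 UMIs), 40.8-fold apart (log2 5.35, 5.13 to 5.57). Ifit1, which binds foreign RNA and blocks its translation, stood at 146 and 5.07 CPM, 28.7-fold apart (log2 4.84, 4.37 to 5.35). Endothelial cells were the high class for each of these 3 members. Iigp1, a GTPase that attacks the vacuoles of intracellular parasites, stood at 102 and 3.57 CPM (log2 4.83, 4.27 to 5.44). Oasl2, a relative of the enzymes that switch on RNA decay, stood at 123 and 4.84 CPM (log2 4.66, 4.17 to 5.19). Both were more than 20-fold apart, at 28.5-fold and 25.35-fold.

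At the other end stood members that microglia held as much as endothelial cells or more. Ifi204, a member of the interferon-inducible family of DNA sensors, had 0 UMIs in naive endothelial cells and 76 in microglia (log2 at most -2.02). Its neighbour Ifi207 had 0 UMIs and 64 (log2 at most -1.78). Ifi204 and Ifi207 are similar in sequence, and how reads shared between them were assigned is uncertain, as it is within the Ifit3, Oas, Oasl, Gbp and Trim30 families. Trim30a, a tripartite-motif protein, stood at 86.1 CPM in endothelial cells and 117 CPM in microglia (log2 -0.44, -0.73 to -0.17). The secreted glycoprotein gene Lgals3bp stood at 53.1 and 58.2 CPM (log2 -0.13, -0.50 to 0.22). Herc6, the enzyme that attaches Isg15 to proteins in mice, stood at 50.2 and 53.8 CPM (log2 -0.10, -0.48 to 0.27). For Lgals3bp and Herc6 the classes did not differ beyond counting error.

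**Figure D1:**
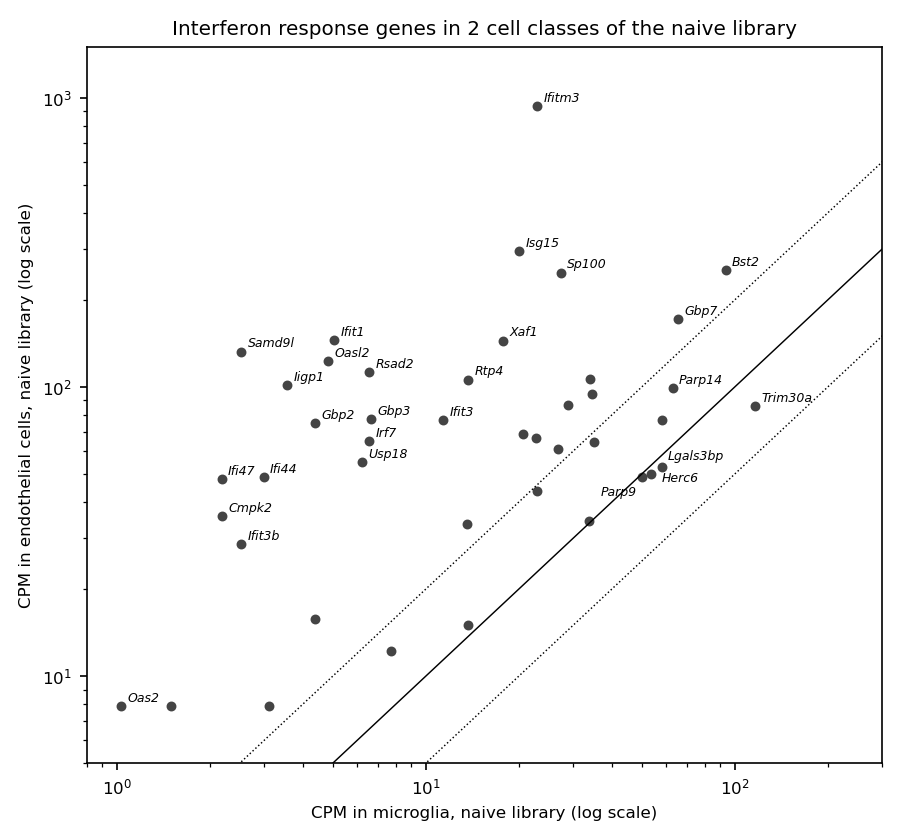
Level of each member with UMIs in both classes of the naive library, endothelial cells against microglia, both in CPM on log axes. Lines mark equal levels and 2-fold differences. Ifi204, Ifi207 and Oas3, with 0 UMIs in endothelial cells, are not shown. Ifitm3 lies highest, at 935 CPM in endothelial cells and 22.9 CPM in microglia, and Trim30a lies farthest to the microglial side of the abundant members, at 86.1 and 117 CPM.

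The gap between the classes was narrower at 3 d. At 24 h, 21 of 36 members were at least 2-fold higher in endothelial cells, beside 17.6% of all genes, and 3 were lower, beside 24.99%; the median log2 ratio was 1.43. At 3 d, 21 of 45 were higher, beside 18.3%, and 5 were lower, beside 23.96%; the median was 0.90. The members lower in endothelial cells were Ifi204, Ifi207 and Lgals3bp at 24 h, joined at 3 d by Trim30a and Ifi27l2a, the last of which was chosen after its values were seen. For Ifitm3 the log2 ratio of endothelial cells to microglia was 4.83 at 24 h and 3.72 at 3 d. For Isg15 it was 3.88 in the naive library, 3.196 at 24 h and 2.41 at 3 d. For Iigp1 it was 6.39 and 4.85 at the 2 times, from 3 and 40 UMIs in microglia. Ifi204 had 1 UMI in endothelial cells and 498 in microglia at 3 d (log2 -6.92, -12.22 to -4.43).

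The comparison of microglia after TIA with naive microglia asks how these immune cells of the brain carried the programme. At 3 d more members were higher than lower in microglia, while at 24 h more were lower than higher. Summed over the members, microglia held 1050 CPM in the naive library, 1006 CPM (970 to 1043) at 24 h and 1707 CPM (1683 to 1731) at 3 d, a log2 ratio of -0.06 (-0.12 to -0.00) at 24 h and 0.70 (0.66 to 0.74) at 3 d. The 3 d library was high, and the other 2 were close to each other.

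At 3 d, 45 of the 46 members passed the minimum, all but Oas3 with 2 UMIs in each sum; 25 were higher, beside 5.77% of all 12727 genes, and 1 was lower, beside 3.24%. The median log2 ratio was 0.63 over these members and 0.06 over all genes, and single values ran from -1.62 to 2.33. The lower one, chosen after its values were seen, was Ifi44, a cytoplasmic protein of uncertain function: it had 26 UMIs in the naive library, 0 at 24 h and 11 at 3 d (log2 -1.62, -2.78 to -0.55, at 3 d). At 24 h, 37 members passed; 3 were higher, beside 8.60% of all 11680 genes, and 12 were lower, beside 6.50%. The median was -0.18 over the members and 0.05 over all genes. These medians depended on few cells and on which cells were taken as microglia. Without the 5% of cells in each library that held the largest member share, the 24 h median was 0.11, and without the 5 cells that held most member UMIs in each library the 3 d median was 1.26. With the members kept out of the genes used for clustering it was 1.07. In the 50% of cells with the smallest share of other classes' markers, an alternative chosen after the data were seen, it was 0.37. There 16 of 41 members were higher, and no share of all genes was set beside that count. In the 54, 14 and 44 microglia with at most 1 UMI of such markers the 3 d median was -0.08, over 13 members.

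**Figure D2:**
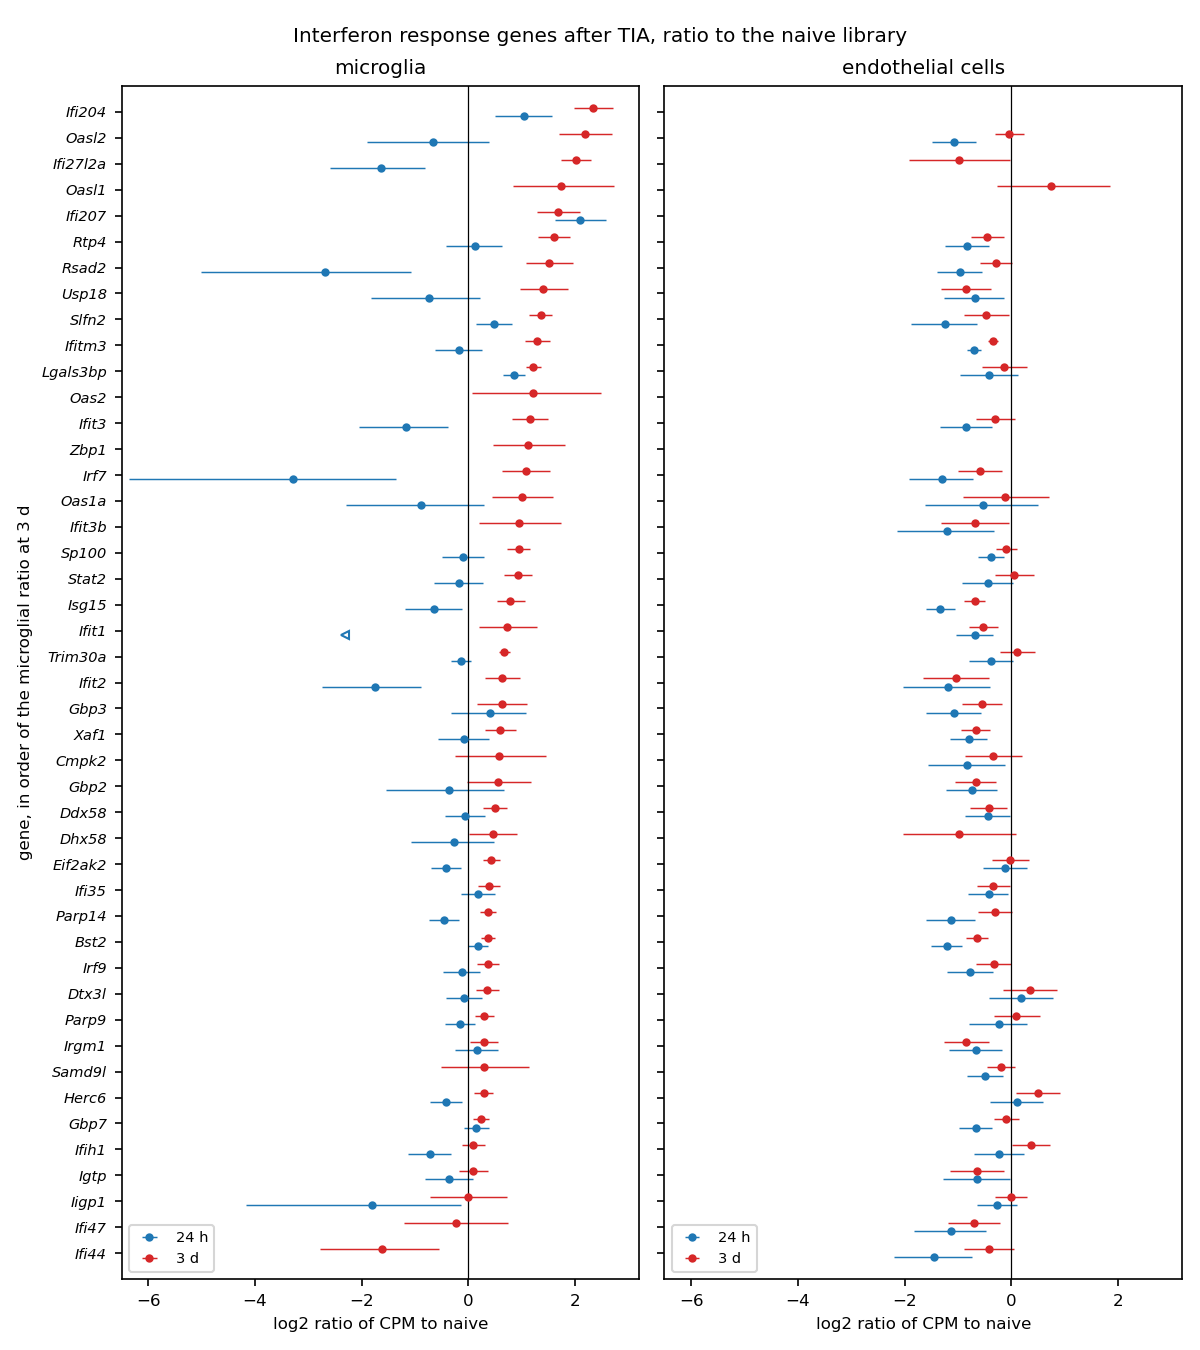
Log2 ratio of CPM to the naive library in microglia (left) and endothelial cells (right), with exact 95% intervals, 24 h in blue and 3 d in red. Points are given for members with at least 30 UMIs in the 2 sums together. Open triangles are bounds from a count of 0. Members are in the order of the microglial ratio at 3 d, which ran from -1.62 to 2.33, and most red points lie right of 0 in microglia and left of 0 in endothelial cells.

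Among the sensors of nucleic acids, Ifi204 had the largest microglial ratio at 3 d of the members with at least 50 UMIs. Ifi204 (ENSMUSG00000073489, chr1:173747293-173766943, GRCm38) stood at 8.76 CPM (76 UMIs) in the naive library, 17.9 CPM (53 UMIs) at 24 h and 44.1 CPM (498 UMIs) at 3 d, 5.04-fold above naive at 3 d (log2 2.33, 1.98 to 2.70; 24 h log2 1.03, 0.50 to 1.56). Ifi207 (ENSMUSG00000073490, chr1:173723427-173741747) stood at 7.37, 31.5 and 23.7 CPM, 4.27-fold above naive at 24 h (log2 2.09, 1.62 to 2.58) and 3.21-fold at 3 d (log2 1.68, 1.28 to 2.10). These DNA sensors were thus higher at both times, with Ifi207 highest at 24 h and Ifi204 at 3 d, although at 24 h 5 of 283 cells held 57.0% of the UMIs of Ifi207 and 47.2% of those of Ifi204. Ifih1, the sensor of long double-stranded RNA, stood at 35.1, 21.3 and 37.4 CPM, lower at 24 h (log2 -0.72, -1.14 to -0.33) and within counting error of naive at 3 d (log2 0.09, -0.13 to 0.31). The 6 sensors, which include Ddx58, Dhx58 and Zbp1, summed to 90.9, 106 and 163 CPM.

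Members that bind RNA or belong to the family that makes 2-5A, the messenger that starts RNA decay, had their smallest summed levels at 24 h and their largest at 3 d. Oasl2 (ENSMUSG00000029561, chr5:114896936-114912234) stood at 4.84 CPM (42 UMIs), 3.05 CPM (9 UMIs) and 21.9 CPM (247 UMIs), 4.52-fold above naive at 3 d (log2 2.18, 1.70 to 2.69), with a 24 h ratio that included 0 (log2 -0.67, -1.89 to 0.39). Its neighbour Oasl1, which in mice restrains the translation of Irf7, had 13, 0 and 56 UMIs (1.498, 0 and 4.96 CPM; log2 1.73, 0.84 to 2.72, at 3 d). Together the 5 genes of this family summed to 11.98, 5.75 and 38.2 CPM. Ifit2, which binds RNA as Ifit1 does, stood at 13.6, 4.06 and 21.0 CPM, lower at 24 h (log2 -1.74, -2.74 to -0.89) and higher at 3 d (log2 0.63, 0.30 to 0.96). Eif2ak2, the kinase PKR that halts translation on sensing double-stranded RNA, stood at 58.1, 43.6 and 78.1 CPM (log2 -0.41, -0.70 to -0.13, at 24 h; 0.43, 0.27 to 0.59, at 3 d). The 5 RNA-binding and translation-blocking members summed to 90.7, 54.5 and 138 CPM.

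The factors that carry and amplify the signal differed in size. Irf7, the master regulator of the later interferon wave, had 57 UMIs (6.57 CPM) in the naive library, 2 UMIs (0.677 CPM) at 24 h and 156 UMIs (13.8 CPM) at 3 d. Its log2 ratio was -3.28 (-6.36 to -1.36) at 24 h and 1.07 (0.63 to 1.54) at 3 d. Rsad2, or viperin, which makes a nucleotide that stops viral polymerases, was similar, with 57, 3 and 210 UMIs (6.57, 1.02 and 18.6 CPM). Its ratio was -2.69 (-5.01 to -1.07) at 24 h and 1.503 (1.07 to 1.95) at 3 d. Both were lowest at 24 h and highest at 3 d, yet few cells held the naive UMIs, since 5 cells had 68.4% of the naive UMIs of Irf7 and 93.0% of those of Rsad2. The 3 transcription factors Irf7, Irf9 and Stat2 summed to 61.9, 50.7 and 97.8 CPM. The Isg15 system, of the ubiquitin-like protein Isg15, its remover Usp18 and the ligase Herc6, summed to 80.1, 56.8 and 117 CPM.

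Of the 4 proteins of the membrane and the cell exterior, 3 were higher at 3 d, beside 5.77% of all genes. Lgals3bp stood at 58.2 CPM (505 UMIs), 105.5 CPM (312 UMIs) and 135.5 CPM (1529 UMIs), 1.81-fold above naive at 24 h (log2 0.86, 0.65 to 1.07) and 2.33-fold at 3 d (log2 1.22, 1.07 to 1.37). Bst2, or tetherin, which holds budding viruses at the cell surface, stood at 93.7, 106 and 121 CPM (log2 0.18, -0.02 to 0.37, and 0.37, 0.24 to 0.49). Rtp4, a chaperone of receptors on their way to the membrane, stood at 13.7, 14.9 and 41.7 CPM (log2 0.12, -0.41 to 0.63, and 1.61, 1.31 to 1.91). Of this group, Lgals3bp alone was at least 1.5-fold higher at 24 h, beside 8.60% of all genes. At 3 d Lgals3bp, Rtp4 and Ifitm3 were. Ifitm3 stood at 22.9 CPM in naive microglia, 20.3 CPM at 24 h and 56.1 CPM at 3 d (log2 1.29, 1.06 to 1.53).

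The GTPases and the ADP-ribosylating proteins had the summed levels closest to naive at 3 d of the 10 groups by role. Gbp7, a guanylate-binding protein, stood at 65.6, 72.7 and 77.3 CPM (log2 0.15, -0.08 to 0.38, and 0.24, 0.08 to 0.39). Gbp3, of the same family, stood at 6.68, 8.80 and 10.3 CPM (log2 0.40, -0.33 to 1.09, and 0.62, 0.15 to 1.10). Igtp, an immunity-related GTPase, stood at 22.9, 17.9 and 24.4 CPM (log2 -0.35, -0.82 to 0.09, and 0.09, -0.18 to 0.36). Of the 7 GTPases with values, Gbp3 alone was counted as higher at 3 d, beside 5.77% of all genes. Iigp1 had 31, 3 and 40 UMIs (3.57, 1.02 and 3.54 CPM; log2 -1.82, -4.17 to -0.13, at 24 h and -0.01, -0.72 to 0.71, at 3 d), and its 31 naive UMIs came from 5 cells. Parp14, an ADP-ribosyltransferase, stood at 63.1, 46.0 and 81.6 CPM (log2 -0.46, -0.74 to -0.18, and 0.37, 0.22 to 0.53). Neither Parp14 nor its partners Parp9 and Dtx3l passed 1.5-fold at either time.

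Of the 8 remaining members, 5 were higher at 3 d and 1 was lower, beside 5.77% and 3.24% of all genes. Trim30a, the most abundant member in microglia, stood at 117 CPM (1014 UMIs), 107 CPM (315 UMIs) and 187 CPM (2107 UMIs) (log2 -0.13, -0.32 to 0.05, and 0.68, 0.57 to 0.79). Ifi27l2a, a small mitochondrial or membrane protein, stood at 13.7, 4.40 and 55.3 CPM, lower at 24 h (log2 -1.64, -2.59 to -0.81) and 4.03-fold above naive at 3 d (log2 2.01, 1.73 to 2.31). Slfn2, a schlafen protein that keeps immune cells quiescent, stood at 26.8, 37.55 and 68.6 CPM (log2 0.48, 0.14 to 0.82, and 1.35, 1.14 to 1.57). Trim30a and Ifi27l2a were lowest at 24 h, whereas Slfn2 was lowest in the naive library. Ifi35, a cytoplasmic partner of other interferon-induced proteins, stood at 34.1, 38.6 and 44.5 CPM (log2 0.18, -0.15 to 0.49, and 0.38, 0.17 to 0.60).

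Markers of other cells were measured in the same microglia. The 10 endothelial markers, all detected, summed to 77.8, 73.75 and 109 CPM, 0.49 on the log2 scale above naive at 3 d, with Slc2a1 the most abundant in each library. The 8 markers of border-associated macrophages summed to 21.7, 21.3 and 17.9 CPM, with Mrc1 the most abundant, and Cbr2, Ms4a7 and Clec12a at 0 at 24 h. The 7 monocyte markers summed to 13.9, 3.05 and 11.96 CPM, with Plac8 the most abundant in the naive and 3 d libraries, Ly6c2, Chil3 and Ace at 0 in the naive library, and all 7 detected at 3 d. The 7 neutrophil markers summed to 404, 403 and 443 CPM, nearly all from Csf3r, with Ly6g at 0 in each library. Erythrocyte markers summed to 1154, 19.3 and 99.3 CPM, with Hbb-bs the most abundant. Astrocyte markers summed to 379, 434 and 515 CPM (log2 0.44, 0.38 to 0.50, at 3 d). Pericyte markers summed to 12.6, 18.3 and 18.4 CPM and B cell markers to 22.5, 22.0 and 36.1 CPM. Below naive at both times were oligodendrocyte markers, at 202, 89.3 and 145 CPM, and neuronal markers, at 52.2, 14.55 and 20.3 CPM. The part of such RNA in the members' values was not tested.

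In endothelial cells the summed members stood highest in the naive library, so that the direction was opposite to that of microglia at 3 d, while at 24 h both classes had more members lower than higher. Their sum was 4425 CPM in the naive library, 2700 CPM (2611 to 2791) at 24 h and 3550 CPM (3480 to 3622) at 3 d, a log2 ratio of -0.71 (-0.77 to -0.65) and -0.32 (-0.36 to -0.27). At 24 h, 38 members passed the minimum; 0 were higher, beside 8.56% of all 8723 genes, and 24 were lower, beside 9.70%. Their median log2 ratio was -0.69, beside -0.01 over all genes. At 3 d, 41 passed; 1 was higher, beside 11.3% of all 9999 genes, and 13 were lower, beside 5.16%. The median was -0.34, beside 0.05 over all genes. The higher one, chosen after its values were seen, was Oasl1 with 11, 18 and 36 UMIs (7.89, 14.04 and 13.1 CPM; log2 0.74, -0.27 to 1.86, at 3 d). With 2-fold in place of 1.5-fold, 11 members were lower at 24 h, beside 3.58% of all genes, and 1 at 3 d, which was Ifit2, beside 0.960%.

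The proteins of the membrane gave endothelial cells the largest part of their member RNA. Ifitm3 (ENSMUSG00000025492, chr7:141009586-141010770) stood at 935 CPM (1303 UMIs) in the naive library, 579 CPM (742 UMIs) at 24 h and 737 CPM (2018 UMIs) at 3 d (log2 -0.69, -0.82 to -0.56, and -0.34, -0.44 to -0.24). Bst2 stood at 254, 110.0 and 162 CPM (log2 -1.21, -1.50 to -0.92, and -0.65, -0.85 to -0.44). For both genes the order was naive, then 3 d, then 24 h, with no overlap of intervals. The 4 genes of this group summed to 1348, 789 and 1025 CPM.

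The Isg15 system summed to 401, 206 and 285 CPM and the transcription factors to 229, 133 and 190 CPM, the same order as for the membrane proteins. Isg15 (ENSMUSG00000035692, chr4:156199424-156200818) stood at 295.5 CPM (412 UMIs), 118 CPM (151 UMIs) and 184 CPM (503 UMIs) (log2 -1.33, -1.61 to -1.05, and -0.69, -0.88 to -0.495). Usp18, which also restrains the interferon receptor, stood at 55.2, 34.3 and 30.7 CPM (log2 -0.69, -1.25 to -0.13, and -0.85, -1.31 to -0.38). Unlike these, Herc6 stood at 50.2, 53.8 and 70.8 CPM (log2 0.10, -0.40 to 0.60, and 0.50, 0.10 to 0.91). Isg15 and its remover were thus lower at both times, and the ligase was not. Irf7 stood at 65.3, 26.5 and 43.45 CPM (log2 -1.30, -1.91 to -0.72, and -0.59, -0.99 to -0.18). Stat2, a subunit of the interferon-activated factor, stood at 68.9, 50.7 and 71.6 CPM (log2 -0.44, -0.92 to 0.03, and 0.06, -0.30 to 0.42).

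Of the 5 RNA-binding and translation-blocking members, 4 were lower at 24 h, beside 9.70% of all genes, and 2 at 3 d, beside 5.16%, and their sum was 361.5, 232 and 273.5 CPM. Those lower at 24 h were Ifit1, Ifit2, Ifit3 and Ifit3b, of which Ifit2 and Ifit3b were also lower at 3 d, and all but Ifit2 were chosen after their values were seen. Ifit2 stood at 33.7, 14.8 and 16.4 CPM (log2 -1.19, -2.04 to -0.39, and -1.04, -1.66 to -0.42). Ifih1 stood at 64.6, 55.4 and 83.3 CPM (log2 -0.22, -0.69 to 0.24, and 0.37, 0.01 to 0.74). Eif2ak2 stood at 76.75, 71.0 and 75.6 CPM (log2 -0.11, -0.53 to 0.30, and -0.02, -0.37 to 0.33). Ifit2 was low at both times, while for Eif2ak2 the intervals included naive at both. The 6 sensors summed to 171, 123 and 161 CPM, and Ifi204 had 0, 0 and 1 UMIs.

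Among the GTPases and the ADP-ribosylating proteins, Gbp7 stood at 172, 108 and 162 CPM (log2 -0.67, -0.98 to -0.36, and -0.09, -0.32 to 0.14). Irgm1, which controls other immunity-related GTPases, stood at 66.7, 42.1 and 37.2 CPM (log2 -0.66, -1.17 to -0.16, and -0.84, -1.26 to -0.42). Ifi47, a GTPase of the same family, stood at 48.1, 21.8 and 29.6 CPM (log2 -1.14, -1.83 to -0.48, and -0.70, -1.19 to -0.21). Irgm1 and Ifi47 were below naive at both times, and Gbp7 at 24 h. Iigp1 stood at 102, 85.0 and 102 CPM (log2 -0.26, -0.63 to 0.11, and 0.00, -0.30 to 0.30). Parp9 stood at 48.8, 41.3 and 52.2 CPM (log2 -0.24, -0.78 to 0.30, and 0.10, -0.33 to 0.54). Its partner Dtx3l, a ubiquitin ligase, stood at 34.4, 39.0 and 43.8 CPM (log2 0.18, -0.42 to 0.78, and 0.35, -0.15 to 0.86). For Iigp1, Parp9 and Dtx3l neither time differed from naive beyond counting error.

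The remaining named members ran from lower to level. Ifi44 stood at 48.8, 17.9 and 36.5 CPM, with the smallest 24 h ratio among members with at least 50 UMIs (log2 -1.44, -2.19 to -0.74, and -0.42, -0.88 to 0.05). Slfn2 stood at 61.0, 25.7 and 44.2 CPM (log2 -1.24, -1.87 to -0.65, and -0.46, -0.88 to -0.05). Both were lower at 24 h by more than 2-fold. Sp100, a protein of nuclear bodies, stood at 249, 192 and 234 CPM (log2 -0.38, -0.62 to -0.14, and -0.09, -0.28 to 0.10). Samd9l stood at 133, 94.4 and 116 CPM (log2 -0.49, -0.83 to -0.15, and -0.19, -0.46 to 0.08). Trim30a stood at 86.1, 66.3 and 93.1 CPM (log2 -0.38, -0.79 to 0.04, and 0.11, -0.21 to 0.44). These 3 were within 1.5-fold of naive at both times.

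Other cells' markers also differed between the endothelial sums. The 10 microglial markers, all detected, summed to 996, 382 and 1447 CPM, -1.38 and 0.54 on the log2 scale from naive. The 8 pericyte markers, all detected, summed to 260, 245 and 141 CPM, with Rgs5 the most abundant, and the 5 erythrocyte markers to 416, 25.7 and 94.6 CPM, with Hbb-bt at 0 at 24 h. The 9 astrocyte markers summed to 364, 161 and 333 CPM, with Aqp4 at 0 at 24 h, and the 13 neuronal markers to 173, 52.3 and 96.03 CPM, with Stmn2 the most abundant. The 8 markers of border-associated macrophages, of which 2, 1 and 7 were detected, summed to 2.87, 1.56 and 19.35 CPM. The endothelial markers themselves summed to 23930, 25450 and 24510 CPM. Naive levels of the members stood beside 996 CPM of microglial markers and 3 d levels beside 1447 CPM; the part of this RNA in the members' values was not tested.

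Single cells showed how the members were spread. Each cell was thinned at random to 2000 UMIs, which left out 15, 4 and 10 microglia and 17, 8 and 36 endothelial cells that were shallower. In microglia 11 of 1010 naive cells (1.09%, 0.545 to 1.94) held at least 10 member UMIs, as did 3 of 279 at 24 h (1.08%, 0.222 to 3.11). At 3 d the number was 87 of 1265 (6.88%, 5.545 to 8.41). Those 87 cells held 36.4% of the thinned member UMIs of 3 d microglia. The mean over the other microglia was 1.66 member UMIs in the naive library, 1.87 at 24 h and 2.31 at 3 d. Unthinned, the mean was 8.90 member UMIs a cell in the naive library, 10.5 at 24 h and 15.1 at 3 d, with maxima of 404, 82 and 593.

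Endothelial cells were broader in their use of the members. Of 270 naive cells, 35.9% (30.2 to 41.96) held at least 10 member UMIs, of 221 cells at 24 h 10.9% (7.08 to 15.7) and of 555 cells at 3 d 22.7% (19.3 to 26.4). The unthinned means were 21.5, 15.1 and 16.45 member UMIs a cell. In astrocytes 0 of 885 naive cells reached 10, which allows a share of up to 0.416%, 0 of 226 at 24 h and 1 of 1412 at 3 d. At least 1 member UMI was found unthinned in 98.05%, 99.65% and 98.9% of microglia and in 33.2%, 42.3% and 40.7% of neurons and neuroblasts, at median depths of 7862, 9452 and 7828 UMIs and of 7146.5, 8612 and 8315 UMIs. With 5 in place of 10 member UMIs, 18.2% of 3 d microglia and 6.34% of naive microglia passed. At the limit of 10, but without Trim30a, Lgals3bp and Bst2, the 3 most abundant members there, the shares were 4.03% and 0.990%. Among endothelial cells 61.3% at 3 d and 73.7% in the naive library passed the limit of 5. At 10, without their 3 most abundant members Ifitm3, Sp100 and Isg15, 9.73% and 17.8% passed.

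**Figure D3:**
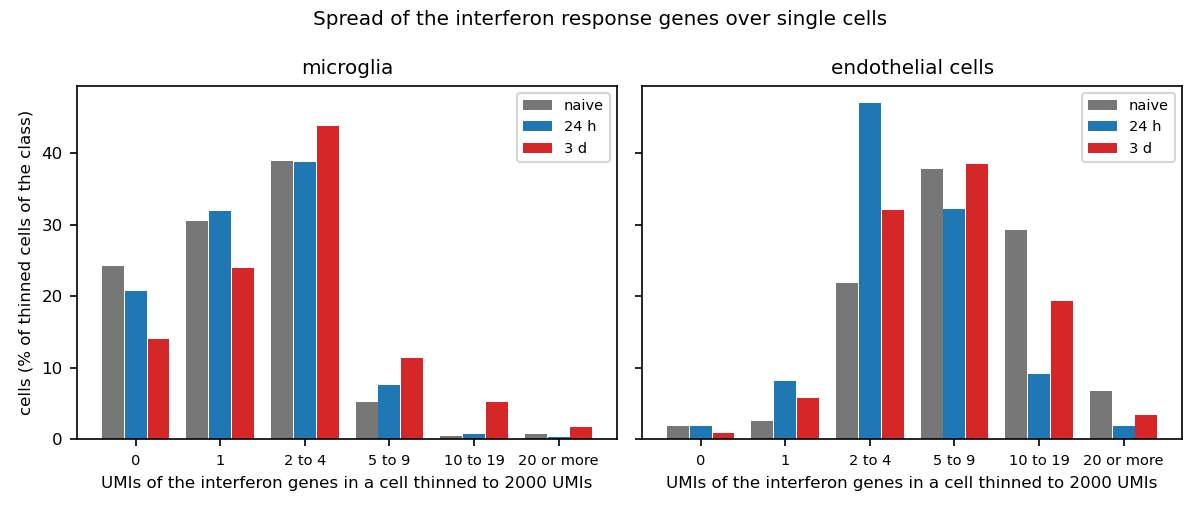
Percent of cells, thinned to 2000 UMIs each, by the number of member UMIs they held, for microglia and endothelial cells in each library. Cells with at least 10 member UMIs made up 1.09%, 1.08% and 6.88% of microglia and 35.9%, 10.9% and 22.7% of endothelial cells in the naive, 24 h and 3 d libraries.

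The microglia rich in member RNA lay mostly in 1 cluster. Microglia formed clusters 0 and 8, and the genes leading cluster 8 were Cxcl10, Ccl12, Tnf, Ccl2, Lpl, Ifi204, Lilrb4a, Egr2, Ifi207 and Ccl4, of which 2 are members. Clustering used 25 members among its 2000 variable genes, so the clusters were not independent of the members. Cluster 8 held 118, 65 and 276 cells with 2772, 1322 and 3762 CPM of the members, and cluster 0 held 907, 218 and 999 cells with 818, 877 and 1064 CPM. Cluster 8 was thus 118 of 1025 naive microglia, 65 of 283 at 24 h and 276 of 1275 at 3 d, and the ratios of the whole class mix the clusters in different proportions. Within cluster 0 the median log2 ratio of the members was 0.01 at 24 h (25 members) and 0.37 at 3 d (34 members). Within cluster 8 it was -1.17 at 24 h (34 members) and 0.20 at 3 d (45 members), against -0.18 and 0.63 in the whole class. Of the 87 rich cells at 3 d, 80 lay in cluster 8. Their microglial markers summed to 21960 CPM, beside 25550 CPM in the other microglia, and their endothelial markers to 297 CPM, beside 93.6 CPM, at median depths of 7816 and 7856 UMIs. Scrublet called 1 of the 87 a doublet and 7 of the others. The 11 rich naive cells held markers of border-associated macrophages at 445 CPM, beside 15.6 CPM in the other naive microglia. Whether RNA or cells of other classes account for rich cells was not tested.

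Members differed in how far they kept to the same cells. For each member, microglia at 3 d were ranked by the thinned UMIs of the other members, and the share of its UMIs in the top 10% of cells was taken. The 31 members with at least 30 thinned UMIs ran from 15.3% for Dtx3l to 87.2% for Rsad2, with a median of 38.8%. Ifit3 had 86.8% there, Oasl2 82.0%, Isg15 78.1%, Ifi207 78.0% and Ifitm3 70.6%, whereas Gbp7 had 19.3%, Ddx58 21.8% and Irf9 22.8%. The members most abundant in microglia lay between, Trim30a with 28.35% and Bst2 with 33.0%. In endothelial cells at 3 d the 34 members ran from 12.1% for Trim30a to 44.0% for Ifit1, with a median of 23.5%. In the naive library the medians were 20.2% over 21 members in microglia and 18.9% over 25 in endothelial cells.

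Few cells carried much of the UMIs of some members. The 5 naive microglia with most member UMIs held 15.4% of the UMIs of the members together, the 5 at 24 h 11.3% and the 5 at 3 d 7.45%. By member, 5 naive microglia held 86.4% of the UMIs of Ifit1, 84.4% of those of Ifi207 and 77.1% of those of Ifit2, but 5.10% of those of Gbp7. At 3 d, 5 cells held 19.1% of the UMIs of Ifi204 and 19.8% of those of Oasl2, below the naive 65.8% and 61.9%. Other members still rested on few cells at 3 d, with 5 cells holding 72.5% of the UMIs of Iigp1, 60.95% of those of Rsad2, 58.9% of those of Oasl1, 46.3% of those of Ifit1 and 40.45% of those of Ifi207.

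The other classes held fewer member UMIs. In astrocytes the members summed to 256, 262 and 350 CPM. At 24 h, 3 of 22 members were higher, beside 9.58% of all genes, and 6 lower, beside 13.8%; at 3 d, 13 of 31 were higher, beside 5.18%, and 0 lower, beside 3.74%. The medians were -0.25 and 0.45, beside 0.01 and 0.04 over all genes. The higher members at 24 h were Igtp, Ifitm3 and Rtp4. Rtp4 stood at 15.5, 24.3 and 33.5 CPM (log2 0.64, 0.21 to 1.07, and 1.11, 0.83 to 1.39), and Ifitm3 at 6.41, 15.1 and 12.2 CPM (log2 1.24, 0.63 to 1.83, and 0.93, 0.49 to 1.39). Both were lowest in the naive library. Herc6, the most abundant member in astrocytes, stood at 37.9, 50.3 and 49.7 CPM, and Eif2ak2 at 33.2, 31.6 and 32.3 CPM. Xaf1, an inhibitor of a brake on apoptosis, stood at 2.47, 3.51 and 6.79 CPM (log2 1.46, 0.78 to 2.20, at 3 d). Low at 24 h were Ifit3b at 7.75, 3.51 and 8.42 CPM and Irf9 at 9.89, 5.27 and 10.4 CPM. The smallest 3 d ratios were those of Cmpk2, at 3.48, 4.57 and 2.41 CPM (log2 -0.53, -1.28 to 0.22), and Irgm1, at 8.88, 9.49 and 8.14 CPM (log2 -0.13, -0.55 to 0.31). In these astrocytes the 10 microglial markers, all detected, summed to 922, 368 and 645.0 CPM, and the 5 erythrocyte markers, all detected, to 812, 23.9 and 742 CPM, with Hbb-bs the most abundant in the naive and 3 d libraries and Hba-a1 at 24 h. Their part in the members' values was not tested.

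Pericytes, which wrap the capillaries, held Ifitm3 above all. The members summed to 1104, 1497 and 1512 CPM, and Ifitm3 stood at 622, 963 and 807 CPM (log2 0.63, 0.47 to 0.80, and 0.38, 0.22 to 0.54). At 24 h, 4 of 15 members were higher, beside 9.53% of all genes, and 5 lower, beside 8.67%; at 3 d, 11 of 22 were higher, beside 15.5%, and 0 lower, beside 5.93%. The higher ones at 24 h were Ifitm3 and, chosen after their values were seen, Ddx58, Gbp7 and Dtx3l; the lower ones were Ifit2, Isg15, Bst2, Lgals3bp and Ifi35. The medians were 0.18 and 0.55, beside 0.00 and 0.07 over all genes. Isg15 stood at 23.5, 14.8 and 42.3 CPM (log2 0.85, 0.06 to 1.71, at 3 d), Gbp7 at 17.96, 31.5 and 35.6 CPM (log2 0.99, 0.09 to 1.99, at 3 d) and Ifih1 at 44.2, 40.4 and 42.3 CPM. Bst2 stood at 37.3, 20.7 and 28.2 CPM and Lgals3bp at 27.6, 17.7 and 25.5 CPM. In the same pericytes microglial markers summed to 461.5, 314 and 1361 CPM, astrocyte markers to 810, 167.5 and 1784 CPM and erythrocyte markers to 163, 52.2 and 7960 CPM, whose part was not tested.

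Oligodendrocytes and neural progenitors had few members past the minimum at 24 h. In oligodendrocytes the members summed to 138, 128 and 204 CPM. At 24 h, 1 of 3 was higher (Ifit2), beside 10.4% of all genes, and 0 lower, beside 15.3%; at 3 d, 5 of 8 were higher, beside 11.3%, and 0 lower, beside 4.42%. Of the 5, Herc6, Ifitm3 and Lgals3bp were chosen after their values were seen, while Rtp4 stood at 3.34, 3.33 and 11.8 CPM (log2 1.82, 0.83 to 2.93, at 3 d) and Trim30a at 3.95, 3.33 and 10.6 CPM (log2 1.43, 0.48 to 2.46). At 3 d, 5 oligodendrocytes held 81.1% of the UMIs of Trim30a, 63.4% of those of Rtp4 and 72.2% of those of Ifitm3. The most abundant member was Xaf1, at 72.9, 61.6 and 62.9 CPM (log2 -0.24, -0.64 to 0.14, and -0.21, -0.48 to 0.06). Ifit2 stood at 11.2, 18.3 and 8.62 CPM and Stat2 at 10.9, 11.65 and 12.35 CPM. In these cells microglial markers summed to 491, 499 and 786 CPM, endothelial markers to 135, 94.05 and 211 CPM and pericyte markers to 24.9, 8.32 and 111 CPM. Erythrocyte markers in them summed to 6566, 14.15 and 4817 CPM. The part of each in the members' values was not tested.

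In neural progenitors the members summed to 192, 195 and 317 CPM. At 24 h, 1 of 5 was higher (Ifitm3), beside 11.7% of all genes, and 1 lower (Eif2ak2, chosen after its values were seen), beside 9.06%; at 3 d, 10 of 21 were higher, beside 6.51%, and 0 lower, beside 4.42%. Ifit1 had 3, 0 and 48 UMIs (log2 3.82, 2.19 to 6.15, at 3 d) and Rsad2 6, 0 and 80 UMIs (log2 3.56, 2.375 to 5.05). These 3 d values rested on few cells, since 5 cells held 97.9% of the 3 d UMIs of Ifit1 and 98.75% of those of Rsad2. Over all members, 2 of 215 thinned cells held 36.5% of the thinned member UMIs at 3 d. Ifitm3 stood at 25.4, 51.0 and 26.6 CPM (log2 1.01, 0.46 to 1.54, and 0.07, -0.36 to 0.50), with 91.5% of its 24 h UMIs in 5 cells, and Herc6 at 24.2, 22.8 and 35.6 CPM. Ifit2 stood at 25.9, 23.9 and 29.65 CPM and Stat2 at 18.9, 13.01 and 23.7 CPM. Erythrocyte markers in these cells summed to 149, 7.59 and 10280 CPM. The 7 fibroblast markers summed to 34.7, 171 and 25.01 CPM, with Col1a2 the most abundant at 24 h and Lum at 0 in each library, and the 6 choroid plexus markers, all detected, to 101, 777.5 and 433 CPM, with Ttr the most abundant. The part of each in the members' values was not tested.

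Neurons and neuroblasts held least, at 114, 79.45 and 127 CPM. At 24 h, 1 of 6 members was higher (Herc6, chosen after its values were seen), beside 4.85% of all genes, and 2 lower (Irf9 and Ifitm3), beside 16.7%; at 3 d, 3 of 12 were higher, beside 3.55%, and 2 lower, beside 5.86%. At 3 d the higher ones were Stat2 and, chosen after their values were seen, Oasl2 and Parp9; the lower ones were Ifitm3 and, likewise chosen, Isg15. Stat2 stood at 10.7, 14.9 and 16.2 CPM (log2 0.59, 0.05 to 1.14, at 3 d), Ifit2 at 13.8, 13.9 and 13.6 CPM, Irf9 at 8.36, 2.98 and 8.84 CPM, and Ifitm3 at 7.16, 1.99 and 4.13 CPM. Of the naive UMIs of Ifitm3, 5 cells held 69.05%. In these neurons the 10 endothelial markers summed to 126, 14.9 and 29.2 CPM, with Cldn5 the most abundant in the naive library, Slc2a1 in the others, and Cdh5 and Tek at 0 at 24 h. The 10 microglial markers summed to 842, 167 and 627 CPM, with Fcrls at 0 at 24 h, and the 5 erythrocyte markers to 2526, 21.85 and 64.9 CPM, with Hbb-bs the most abundant; the part of these cells' RNA was not tested.

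Around the members, 109 other genes of the pathway were listed by role, of which 106 had values. The ligands were nearly undetected: of 9 interferon genes, Ifnb1 had 0, 0 and 1 UMIs in microglia and 0 in each endothelial sum, and Ifng had 0 in all of them. Of 6 receptor genes, Ifnlr1 (chosen after its values were seen) had 0 UMIs in each sum of both classes, and the other 5 were detected. Ifnar1 stood at 50.1, 57.85 and 53.7 CPM in microglia and at 253, 179 and 259 CPM in endothelial cells. Ifnar2 stood at 282, 268 and 263 CPM in microglia and at 447, 342 and 472 CPM in endothelial cells. At 1.5-fold, 0 of 5 receptor genes differed in microglia at either time, beside 8.60% of all genes higher and 6.50% lower at 24 h and 5.77% and 3.24% at 3 d. In endothelial cells 1 of 5 was lower at 24 h, beside 9.70%. Both subunits thus stood higher in endothelial cells, whose 24 h level was the lowest (log2 -0.50, -0.74 to -0.25, for Ifnar1 and -0.39, -0.57 to -0.21, for Ifnar2).

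Of the 9 kinase and transcription factor genes outside the members, 0 passed 1.5-fold in microglia at either time, beside the same shares of all genes as for the receptors. Irf1, an early factor of the response, stood at 40.9, 37.9 and 49.5 CPM in microglia and at 92.5, 42.9 and 77.4 CPM in endothelial cells (log2 -1.11, -1.59 to -0.64, at 24 h). Irf1 was thus low in endothelial cells at 24 h, as most members were. Irf8, a factor of the myeloid lineage, stood at 427, 365 and 416 CPM in microglia and at 10.8, 3.90 and 22.3 CPM in endothelial cells (log2 1.05, 0.22 to 1.97, at 3 d), beside the difference in microglial markers given for these cells. The brake Socs1 stood at 6.80, 5.41 and 7.44 CPM in microglia and at 7.17, 2.34 and 4.75 CPM in endothelial cells. Socs3, its relative, stood at 163, 168 and 166 CPM in microglia and at 32.3, 35.9 and 55.9 CPM in endothelial cells (log2 0.79, 0.30 to 1.30, at 3 d).

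Of 45 further interferon-induced genes with values, 12 of 42 were higher and 2 lower in microglia at 3 d, beside 5.77% and 3.24% of all genes, with a median log2 ratio of 0.33. At 24 h, 2 of 38 were higher and 6 lower, beside 8.60% and 6.50%, with a median of -0.13. In endothelial cells 1 of 26 was higher and 7 lower at 24 h (median -0.36), beside 8.56% and 9.70% of all genes. At 3 d, 1 of 33 was higher and 5 lower (median -0.13), beside 11.3% and 5.16%. The median of this list thus lay on the same side of 0 as that of the members in each comparison, and closer to 0. Single genes of the list lay on both sides each time. Cxcl10, a chemokine for T cells, stood at 26.2, 25.4 and 54.5 CPM in microglia (log2 -0.04, -0.44 to 0.34, and 1.06, 0.84 to 1.29) and had 0, 1 and 3 UMIs in endothelial cells. Slfn5 stood at 16.1, 9.13 and 36.5 CPM in microglia (log2 -0.82, -1.47 to -0.22, and 1.18, 0.90 to 1.47), Ifi209 at 6.11, 4.06 and 14.7 CPM (log2 1.27, 0.81 to 1.74, at 3 d) and Ifi30, a lysosomal reductase, at 152, 235 and 147 CPM (log2 0.63, 0.50 to 0.77, at 24 h). Ifi203, of the family of Ifi204, was lower in both classes, with 44, 0 and 10 UMIs in microglia (log2 -2.52, -3.67 to -1.50, at 3 d) and 43, 7 and 24 UMIs in endothelial cells (log2 -2.50, -3.90 to -1.33, and -1.82, -2.60 to -1.06). Sp140 stood at 17.2, 28.1 and 20.1 CPM in endothelial cells (log2 0.71, -0.08 to 1.51, at 24 h).

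Genes known above all for interferon gamma lay on both sides of naive in microglia at 3 d. Of 13 that passed, 3 were higher and 4 lower at 3 d, beside 5.77% and 3.24% of all genes, with a median log2 ratio of -0.10. At 24 h, 1 was higher and 7 lower, beside 8.60% and 6.50%, with a median of -0.62. The class II genes were the lowest: H2-Aa had 297, 3 and 29 UMIs (log2 -5.08, -7.36 to -3.51, at 24 h), H2-Eb1 had 276, 0 and 52 (log2 at most -4.97 at 24 h and -2.79, -3.24 to -2.35, at 3 d) and H2-Ab1 had 316, 11 and 104 (log2 -3.29, -4.31 to -2.43, at 24 h). Higher were Nlrc5, the class I transactivator, at 5.18, 3.38 and 13.65 CPM (log2 1.40, 0.91 to 1.91, at 3 d) and Cd274, the checkpoint ligand PD-L1, at 11.3, 25.03 and 18.9 CPM (log2 1.15, 0.69 to 1.60, at 24 h). In endothelial cells Cd274 stood at 34.4, 21.1 and 18.99 CPM (log2 -0.86, -1.45 to -0.26, at 3 d) and Psmb9, a subunit of the immunoproteasome, at 81.8, 38.2 and 48.6 CPM (log2 -1.10, -1.61 to -0.60, at 24 h); 6 of 9 genes of this list were lower there at 24 h, beside 9.70% of all genes, and 2 of 11 at 3 d, beside 5.16%.

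Of the sensors upstream of interferon, in microglia 0 of 10 were higher and 1 lower at 24 h, beside 8.60% and 6.50% of all genes, and 0 differed at 3 d, beside 5.77% and 3.24%; Tlr7, the receptor for single-stranded RNA, stood at 185.5, 278 and 216 CPM (log2 0.58, 0.46 to 0.70, at 24 h). In endothelial cells 1 of 4 was higher at 24 h, beside 8.56% of all genes, and 2 of 7 at 3 d, beside 11.3%. Tbk1, the kinase that activates the factors of interferon transcription, stood there at 35.9, 62.4 and 63.2 CPM (log2 0.80, 0.27 to 1.34, and 0.82, 0.35 to 1.30). Aim2, a sensor of cytoplasmic DNA, stood at 13.6, 11.7 and 24.1 CPM (log2 0.82, 0.07 to 1.64, at 3 d). Samhd1, which depletes nucleotides, stood at 91.8, 139 and 110 CPM (log2 0.60, 0.26 to 0.94, at 24 h), and Tyk2, the receptor kinase, at 23.7, 21.1 and 13.5 CPM (log2 -0.81, -1.53 to -0.09, at 3 d).

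Some members also share features of sequence or position. Of the 46, 36 matched a promoter in RefSeq, from 250 bases before to 50 after the gene start, in build GRCm38.p6. The core of the interferon-stimulated response element, written GAAANNGAAA and sought on both strands, was in 20 of the 36 (55.6%), beside 794 of 20267 genes (3.92%). The gamma-activated site, written TTCNNNGAA, was in 8 of 36 (22.2%), beside 1895 of 20267 (9.35%), and the motifs overlapped in 2 windows of members. Members with the core had a median log2 ratio of 0.68 in microglia at 3 d (19 members) and those without it 0.59 (16 members); in endothelial cells the medians were -0.38 (18 members) and -0.33 (16 members). A match is a description of letters, and the medians lay close together.

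Promoters are printed for the 3 members with a printable window and the largest microglial ratios at 3 d (Oasl2, Oasl1, Ifi207) and the 3 with the highest naive endothelial levels (Ifitm3, Isg15, Bst2), in GRCm38.p6, 5′ to 3′ along the strand of the gene, with response element cores in capitals. The windows are chr5:114896684-114896983 (+) for Oasl2, chr5:114922990-114923289 (+) for Oasl1, chr1:173741760-173742059 (-) for Ifi207, chr7:141010695-141010994 (-) for Ifitm3, chr4:156200769-156201068 (-) for Isg15 and chr8:71537423-71537722 (-) for Bst2. The endothelial set holds 2, 3 and 2 cores, and the microglial set holds 1, in Ifi207.
Oasl2: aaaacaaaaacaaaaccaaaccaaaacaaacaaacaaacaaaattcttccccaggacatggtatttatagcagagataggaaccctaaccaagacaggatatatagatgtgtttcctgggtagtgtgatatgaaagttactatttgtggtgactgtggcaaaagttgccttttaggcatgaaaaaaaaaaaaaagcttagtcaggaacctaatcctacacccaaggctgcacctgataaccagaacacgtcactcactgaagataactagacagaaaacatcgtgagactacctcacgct
Oasl1: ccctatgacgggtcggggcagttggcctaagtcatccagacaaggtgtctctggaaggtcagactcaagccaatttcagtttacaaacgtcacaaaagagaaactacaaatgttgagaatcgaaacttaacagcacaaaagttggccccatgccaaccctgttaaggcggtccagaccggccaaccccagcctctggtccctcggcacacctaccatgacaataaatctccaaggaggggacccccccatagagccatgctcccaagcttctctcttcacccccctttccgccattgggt
Ifi207: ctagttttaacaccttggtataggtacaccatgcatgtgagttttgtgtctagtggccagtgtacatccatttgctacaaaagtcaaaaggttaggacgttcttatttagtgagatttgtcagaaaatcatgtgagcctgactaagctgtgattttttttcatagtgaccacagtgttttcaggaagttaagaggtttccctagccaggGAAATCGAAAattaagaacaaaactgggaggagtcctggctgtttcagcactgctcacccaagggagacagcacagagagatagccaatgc
Ifitm3: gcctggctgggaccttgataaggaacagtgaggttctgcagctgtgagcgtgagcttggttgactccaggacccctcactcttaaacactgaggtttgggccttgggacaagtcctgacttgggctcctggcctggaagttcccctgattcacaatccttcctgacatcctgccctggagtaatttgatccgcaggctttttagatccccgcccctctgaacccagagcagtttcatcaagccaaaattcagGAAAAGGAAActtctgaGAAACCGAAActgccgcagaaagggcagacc
Isg15: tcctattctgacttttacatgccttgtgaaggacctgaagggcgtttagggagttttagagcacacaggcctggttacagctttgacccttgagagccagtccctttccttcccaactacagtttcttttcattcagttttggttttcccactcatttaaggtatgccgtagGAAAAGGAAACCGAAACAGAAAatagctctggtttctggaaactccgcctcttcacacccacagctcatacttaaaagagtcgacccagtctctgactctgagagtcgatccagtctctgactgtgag
Bst2: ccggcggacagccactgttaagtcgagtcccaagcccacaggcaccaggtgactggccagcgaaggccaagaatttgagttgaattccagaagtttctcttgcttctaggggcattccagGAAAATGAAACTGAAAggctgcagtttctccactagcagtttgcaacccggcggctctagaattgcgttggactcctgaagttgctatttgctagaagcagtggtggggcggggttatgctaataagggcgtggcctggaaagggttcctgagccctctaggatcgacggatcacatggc
With the gene start as 0, the core of Ifi207 begins at -41, those of Ifitm3 at 2 and 19, those of Isg15 at -78, -72 and -66 and those of Bst2 at -130 and -124. The cores of Isg15 overlap, as do those of Bst2, so that the capitals run on.

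By position, 23 of the 46 members fall into 9 groups of neighbours no more than 500 kb apart, on the 16 chromosomes that hold members. No count over all genes was set beside this one. Ifit2, Ifit3, Ifit3b and Ifit1 lie within 99 kb of chromosome 19, Rsad2 and Cmpk2 within 37 kb of chromosome 12, Parp14, Dtx3l and Parp9 within 140 kb of chromosome 16, and Gbp7, Gbp3 and Gbp2 within 108 kb of chromosome 3. Ifi207 and Ifi204 lie within 44 kb of chromosome 1 and Oasl2 and Oasl1 within 41 kb of chromosome 5. Neighbours did not always have like levels: Ifitm3 and Irf7, within 257 kb of chromosome 7, stood at 935 and 65.3 CPM in naive endothelial cells.

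Genes outside the lists that followed the members over single cells were ranked by Pearson correlation with the summed members over 1265 thinned microglia of the 3 d library, among 7298 genes with at least 200 UMIs. The cells share 1 library and depth, and no test was made. Thinned as above, these microglia had a median of 2 member UMIs, a 99th percentile of 23 and a maximum of 159. How far r rested on few cells was not tested. The closest were Tspo, a mitochondrial membrane protein, with r of 0.47, Clec2d, a ligand of natural killer cell receptors, with 0.38, and the glycolytic enzyme gene Pkm with 0.38. They were followed by Tpm4 (0.37), Sptbn1 (0.37), Prnp (0.36), Clic4 (0.35), Ccl12 (0.34), Rhoc (0.28) and Gm4951 (0.27). Of these, the chemokine gene Ccl12 stood at 134, 158 and 299 CPM (log2 1.16, 1.06 to 1.26, at 3 d) and Gm4951 at 14.75, 10.5 and 30.8 CPM (log2 1.06, 0.77 to 1.37, at 3 d). Tspo stood at 52.2, 80.2 and 53.6 CPM, level with naive at 3 d.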

How the data were processed

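The authors aligned reads to mm10 and deposited UMI counts per gene and cell barcode, 1 table per library; they name the GENCODE M23 annotation, the submitters' notes name Cell Ranger 3.1.0 and the file header 7.1.0. Coordinates here are from GENCODE M21 (GRCm38), matched by gene ID. The members and lists were chosen with earlier results of these data known.

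The cell filter was at least 500 genes and at most 7% mitochondrial UMIs, and clustering used genes seen in at least 3 cells. Counts were log-normalised, 2000 variable genes (25 of them members) were scaled with regression on UMIs and mitochondrial share, and 20 principal components were clustered at resolution 0.5 (R 4.3.3, Seurat 5.3.0, Matrix 1.6.5). A cluster was named when at least 3 markers of 1 of 19 lists were in at least 10% of its cells and 2-fold above the others; clusters with low depth or with leading genes of another list stayed unnamed. Scrublet doublets (122 naive, 6 at 24 h, 140 at 3 d) were kept and left out in an alternative. Sums, ratios, exact intervals and thinning (seed 1) used Python 3.11.15, numpy 2.4.6, scipy 1.17.1, pandas 2.3.3 and scanpy 1.11.5, and figures matplotlib 3.10.9; the interval code was tested on simulated data. No tests or p-values were computed, since each condition was 1 library. No paired analysis was possible because the libraries share no animals.

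Genes named with values: in microglia and in endothelial cells the 6 members with the highest mean CPM and, among members with at least 50 UMIs in both sums together, the 6 largest and 4 smallest log2 ratios at each time; the 5 largest and 5 smallest ratios of endothelial cells to microglia in the naive library; in the other classes the 2 highest members and the 2 largest and 2 smallest ratios at each time; set pathway genes with the 3 largest and 3 smallest pathway ratios; and the 10 genes most like the members. Alternatives changed the cell filter, doublets, resolution, regression, variable genes, scaling, minimum, fold, thinning, member list and the cells of a class.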

Additional observations from a re-analysis of the deposited data

Results flagged for a closer look

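Some members moved in opposite directions in microglia and endothelial cells, with both intervals clear of 0. At 24 h this held for Slfn2, whose log2 ratio to naive was 1.73 larger in microglia than in endothelial cells. That was 1 of 33 members (3.03%), beside 2.70% of all 8024 genes with the minimum in both classes that were on opposite sides of naive in either order. At 3 d it held for 17 of 41 members (41.5%), higher in microglia and lower in endothelial cells, beside 1.29% of all 9350 genes in that order and 2.83% in either. The log2 ratio in microglia exceeded that in endothelial cells by 2.99 for Ifi27l2a, 2.25 for Usp18, 2.06 for Rtp4, 1.82 for Slfn2, 1.66 for Irf7, 1.66 for Ifit2, 1.63 for Ifitm3, 1.62 for Ifit3b, 1.48 for Isg15, 1.26 for Ifit1 and 1.26 for Xaf1. For Gbp3 the excess was 1.17, for Irgm1 1.14, for Bst2 1.02, for Ddx58 0.92, for Ifi35 0.72 and for Irf9 0.70. These differences were not tested, and both classes at each time came from 1 library.

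In microglia 9 of 37 members (24.3%) were below naive at 24 h and above it at 3 d, with both intervals clear of 0, beside 1.29% of all 11673 genes. The log2 ratio at 3 d exceeded that at 24 h by 4.35 for Irf7, 4.20 for Rsad2, 3.65 for Ifi27l2a, 2.37 for Ifit2, 2.32 for Ifit3, 1.43 for Isg15, 0.84 for Eif2ak2, 0.83 for Parp14 and 0.70 for Herc6. These differences were not tested either. Of the naive UMIs, 5 cells held 93.0% for Rsad2, 77.1% for Ifit2, 68.4% for Irf7, 65.7% for Ifit3, 54.0% for Isg15 and 51.3% for Ifi27l2a, and without the 5% of cells with the largest member share the median of the members at 24 h was 0.11 in place of -0.18.

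Some cells outside the compared classes held more member RNA in a TIA library than in the naive library; fibroblasts, too few to compare, did not. Cluster 11 had S100a8, F13a1, Pf4, Wfdc17 and H2-Aa among its leading genes. All 10 microglial markers and 8 of border-associated macrophages met the naming limits in it, at a median depth of 33487 UMIs. It held the members at 1354 CPM in the naive library, 2046 CPM at 24 h and 2212 CPM at 3 d. Cluster 12, led by haemoglobin genes, held them at 793 CPM in the naive library and 1436 CPM at 3 d; its 24 h level of 853 CPM (615 to 1153) had an interval that included the naive level. Cluster 9, of low depth, where 3 of 10 microglial markers met those limits, held the members at 723 CPM in the naive library and 977 CPM at 3 d. Its 24 h level of 797 CPM (585.5 to 1060) likewise had an interval that included the naive one. Cells left out by the filter held them at 269 CPM in the naive library, 355 CPM at 24 h and 477 CPM at 3 d.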

How the results depend on the processing

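Under 24 alternative settings 10 main results were computed again, and 123 of 142 values stayed within limits: a median on the same side of 0 and inside the 95% order-statistic interval of the main one, a count within 1.5-fold, a share inside its 95% interval. The endothelial median at 3 d did so under each alternative run, from -0.41 to -0.32. The microglial median at 24 h ran from -0.41 to 0.11 and at 3 d from -0.0832 to 1.26. The total of 123 includes values that could not change. Adding unnamed clusters altered microglia only. The endothelial medians (-0.69 at 24 h, -0.34 at 3 d) and counts of lower members (24 and 13) therefore stayed. Resolution 1 returned these values as well. Counts were scored without the number of members past the minimum. The naive count of 30 members higher in endothelial cells was thus held to be kept where each TIA library gave 21. The total is therefore not a measure of stability.

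Without the 5% of cells with the largest member share, the microglial median at 24 h reversed to 0.11 and the endothelial one was -0.86. Another alternative kept cells with at most 1 UMI of other classes' markers. These were 54, 14 and 44 microglia and 5, 13 and 20 endothelial cells in the naive, 24 h and 3 d libraries. There the microglial 3 d median reversed to -0.0832, and 2 of 13 members were higher in microglia at 3 d. In the naive library 1 member was at least 2-fold higher in endothelial cells than in microglia. No share of all genes was set beside these counts. The 3 d shares of cells with at least 10 member UMIs were 10.3% of microglia and 35.7% of endothelial cells. No endothelial members passed the minimum, so no median was given. With the 50% of cells lowest in other classes' markers, chosen after seeing the data, 16 of 41 members were higher. The microglial 3 d median there was 0.37. It was 1.07 with members left out of the variable genes and 1.26 without the 5 cells with most member UMIs. At 2-fold, 16 members were higher in microglia at 3 d (35.6%, beside 1.73% of all genes), and 11 and 1 were lower in endothelial cells at 24 h and 3 d (28.9% and 2.44%, beside 3.58% and 0.960%). The share of 3 d endothelial cells was 27.2% after thinning to 1000 UMIs with at least 5. With at least 5 of 2000, the shares were 18.2% of microglia and 61.3% of endothelial cells. Without the 3 most abundant members of each class, and again with at least 10, they were 4.03% and 9.73%. The cause was not tested beyond what fewer cells or another limit do by construction.

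Scaling by the median ratio of genes, run for microglia and endothelial cells, shifted log2 ratios by up to 0.0617. It left 22 of 45 members higher in microglia at 3 d, and no share of all genes under this scaling was set beside that count. Depth limits members with few UMIs, and with 1 library a condition the spread between mice is unknown.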

Other observations

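Fibroblasts were too few to compare: 9 naive cells, 2 at 24 h and 12 at 3 d held the members at 1303, 1052 and 1023 CPM. In cluster 12, whose leading genes were haemoglobin genes with Rsad2, Isg20 and Ube2l6, Rsad2 stood at 41.2 CPM (16 UMIs) in the naive library, 40.6 CPM (2 UMIs) at 24 h and 130 CPM (54 UMIs) at 3 d. In cluster 11 Rsad2 had 4, 2 and 142 UMIs (2.45, 4.42 and 28.2 CPM).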
